A study of Homo sapiens with 8 samples.

Results

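The synaptic genes described here are 45 genes for vesicle, active zone, adhesion and postsynaptic proteins, chosen as a list of symbols and found by Entrez gene ID among the 27936 genes counted. Of these, 29 act on the presynaptic side and 16 on the postsynaptic side. The list was drawn up with earlier results of these data known. The genes were measured by RNA-seq in HEK293, a human cell line that was established from embryonic kidney and grows without limit. Of 8 libraries, 4 carried the TIP60 knock-out (KO) label, 2 with sgRNA1 and 2 with sgRNA2, and 4 the control label, again 2 with each guide number. The genotype label read HEKg1/C9 for all KO libraries, whichever the guide, and HEKg1 for all controls. All samples, controls included, had their guide RNAs switched on by doxycycline (1 µg/ml, 3 days), and the sources used here do not say what the controls' guides target. Nor do they say whether the KO cells were a clone or a pool, or whether replicates were separate cultures. P-values therefore measure only the spread between these libraries.

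At a synapse, the presynaptic neuron stores transmitter in vesicles, which dock at a protein meshwork called the active zone and fuse with the membrane when SNARE proteins on the vesicle zip together with SNARE proteins on the membrane. Calcium sensors of the synaptotagmin family time that fusion, and dynamin and clathrin adaptors bring the vesicle membrane back. Neurexins on the presynaptic side bind neuroligins and other adhesion proteins across the cleft, and scaffolds such as SHANK, HOMER and the DLG family hold glutamate receptors in place beneath the opposite membrane. HEK293 cells are not neurons, although synaptic and other neuronal transcripts are found in them. TIP60, encoded by KAT5, is a lysine acetyltransferase that modifies histones.

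Library totals ran from 13325415 to 18841774 gene counts in the KO arm and from 3723992 to 14601552 in the control arm. The smallest library was control sgRNA1 replicate 2, and its rare genes are the least precise. CPM, the count scaled to library size with TMM factors, is used throughout, and 4 values in a row are sgRNA1 replicates 1 and 2, then sgRNA2 replicates 1 and 2. KAT5 had 18.6, 18.3, 20.2 and 18.01 CPM in KO libraries, against 48.2, 45.5, 44.5 and 49.00 CPM in control libraries (log2 fold change -1.32 ± 0.06, adjusted p = 6.71e-13, edgeR quasi-likelihood test). Of the markers listed for the HEK293 line, KRT8, KRT18, VIM, CDH2 and EYA1 averaged 22.1 CPM or more in both arms. In contrast, PAX2 averaged below 1 CPM, and PAX8 and LHX1 were too rare to test. EYA1 (log2 fold change 0.61 ± 0.08), KRT8 (0.36 ± 0.05) and CDH2 (0.29 ± 0.06) were higher in KO. VIM was lower (-0.30 ± 0.05), and KRT18 and PAX2 were not called. Of 10 general neuronal markers 7 could be tested, of which 6 were higher in KO and 0 lower. Of all genes tested, 31.8% were higher and 31.2% lower. ELAVL3 and GAP43 stayed below the low-count filter's cutoff of 0.716 CPM in every control library. They passed the filter through KO alone, which fixed their direction. The summed level of the 10 markers was 13894 to 15103 CPM in KO and 8791 to 10615 CPM in control libraries, nearly all of it from the neurofilament genes NEFM and NEFL. Other neuronal markers had larger measured fold changes. TUBB3, for a neuronal tubulin, had 88.9, 84.2, 92.6 and 86.3 CPM in KO libraries, against 10.02, 7.81, 10.1 and 9.44 CPM in control libraries (3.19 ± 0.07, adjusted p = 8.99e-19). MAP2, for a microtubule protein of dendrites, had 43.7, 42.5, 43.3 and 39.4 CPM in KO libraries, against 7.68, 5.39, 7.04 and 6.27 CPM in control libraries (2.62 ± 0.08, adjusted p = 8.69e-16). ELAVL3, for a neuronal RNA-binding protein, had 88 counts in the KO arm against 3 in the control arm and was higher too. RBFOX3, which marks mature neurons, was at 0.799 against 0.727 CPM (log2 fold change 0.03, adjusted p = 0.946), and STMN2 and DCX had 11 and 8 counts in the KO arm against 4 and 3 in the control arm. Of 7 neuroendocrine markers 3 could be tested, all higher, with a sum of 12.8 to 17.0 CPM in KO and 5.21 to 6.74 CPM in control libraries and no count for CHGA. Of these 3, CHGB also passed the filter through KO alone, which fixed its direction. Of the astrocyte markers 4 could be tested, of which 2 were lower (sum 128 to 137 CPM in KO and 207 to 225 CPM in control libraries). Of the oligodendrocyte markers 3 could be tested, of which 2 were higher and 1 lower (sum 16.8 to 20.4 CPM in KO and 21.0 to 23.5 CPM in control libraries), with no count for MAG. OLIG1, which was higher, reached the cutoff in no control library but sgRNA1 replicate 2 and so passed through KO alone. Leukocyte markers summed to 1.40 to 2.04 CPM in KO and 0.566 to 1.08 CPM in control libraries, and endothelial markers to 0.668 to 1.81 CPM in KO and 0 to 0.326 CPM in control libraries. The part of these markers in the results on synaptic genes was not tested. In bulk RNA, a change in the number of cells that express a gene and a change in the RNA per cell cannot be told apart.

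All 45 synaptic genes had at least 1 count, and 42 passed the filter on low counts. Among these 42, 25 were higher in KO, 10 were lower and 7 were not called at an adjusted p under 0.05 (edgeR, adjusted over 14455 genes). Of all genes tested, 31.8% were higher and 31.2% lower. Of the synaptic genes, 13 were higher by 2-fold or more and 2 lower by as much, beside 8.38% and 1.11% of all genes. The median log2 fold change was 0.50, beside 0.01 over all genes tested. Because the 45 genes were chosen with earlier results known, this contrast describes the list alone. In 24 genes every KO library lay above every control library, and in 9 every KO library lay below, an order that 27.3% and 25.6% of all tested genes showed. Of the 42, 6 passed the filter through 1 arm alone and so had to differ. These were SYN1, SYT5, RAB3C, GRIN1 and GRIA2, through KO, and SHANK2, through control.

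Most presynaptic genes were higher in KO, whereas postsynaptic genes went both ways; the difference between the sides was not tested. Of 27 presynaptic genes tested, 19 were higher (70.4%) and 4 lower (14.8%), beside 31.8% and 31.2% of all genes. Of the 19, SYN1, SYT5 and RAB3C passed the filter through KO alone, which fixed their direction. The median of the 27 was 0.76 on the log2 scale. Of 15 postsynaptic genes tested, 6 were higher and 6 lower (40% each), nearer to the shares of all genes, with a median of -0.01. Among these, GRIN1 and GRIA2, through KO, and SHANK2, through control, also had their direction fixed by the filter. Class counts below are to be read beside the same shares, and separate arms beside 27.3% and 25.6% of all genes. With counts thinned to the smallest library, the postsynaptic genes called higher were 3. Summed over all 29 genes, presynaptic transcripts came to 257 to 267 CPM in KO and 195 to 210 CPM in control libraries. Summed over all 16 genes, postsynaptic transcripts came to 272 to 282 CPM in KO and 324 to 354 CPM in control libraries. Neither pair of ranges overlapped. The postsynaptic fall was not shared by all classes. The 5 postsynaptic adhesion genes summed to 102 to 106 CPM in KO and 157 to 175 CPM in control libraries. Of this, LRFN1 and LRFN4 held 34.0 to 39.4 and 79.7 to 96.2 CPM. Scaffold sums overlapped, at 163 to 170 CPM in KO and 164 to 175 CPM in control libraries. Receptor sums were higher in KO, at 5.16 to 6.66 against 2.52 to 3.77 CPM. The total over the 45 genes was 534 to 548 CPM in KO and 525 to 564 CPM in control libraries, ranges that did overlap.

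**Figure D1:**
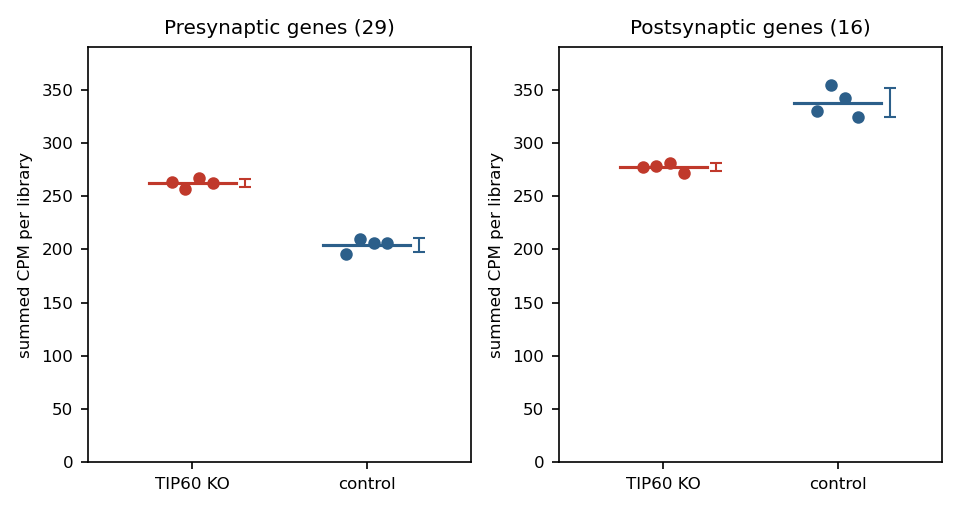
Summed CPM of the 29 presynaptic genes (left panel) and the 16 postsynaptic genes (right panel) in each library, with KO libraries left of control libraries in each panel. Points are libraries, horizontal lines are means and bars are SD (n = 4); the KO points lie at 257 to 267 CPM, above the control points, for presynaptic genes and at 272 to 282 CPM, below the control points, for postsynaptic genes.

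**Figure D2:**
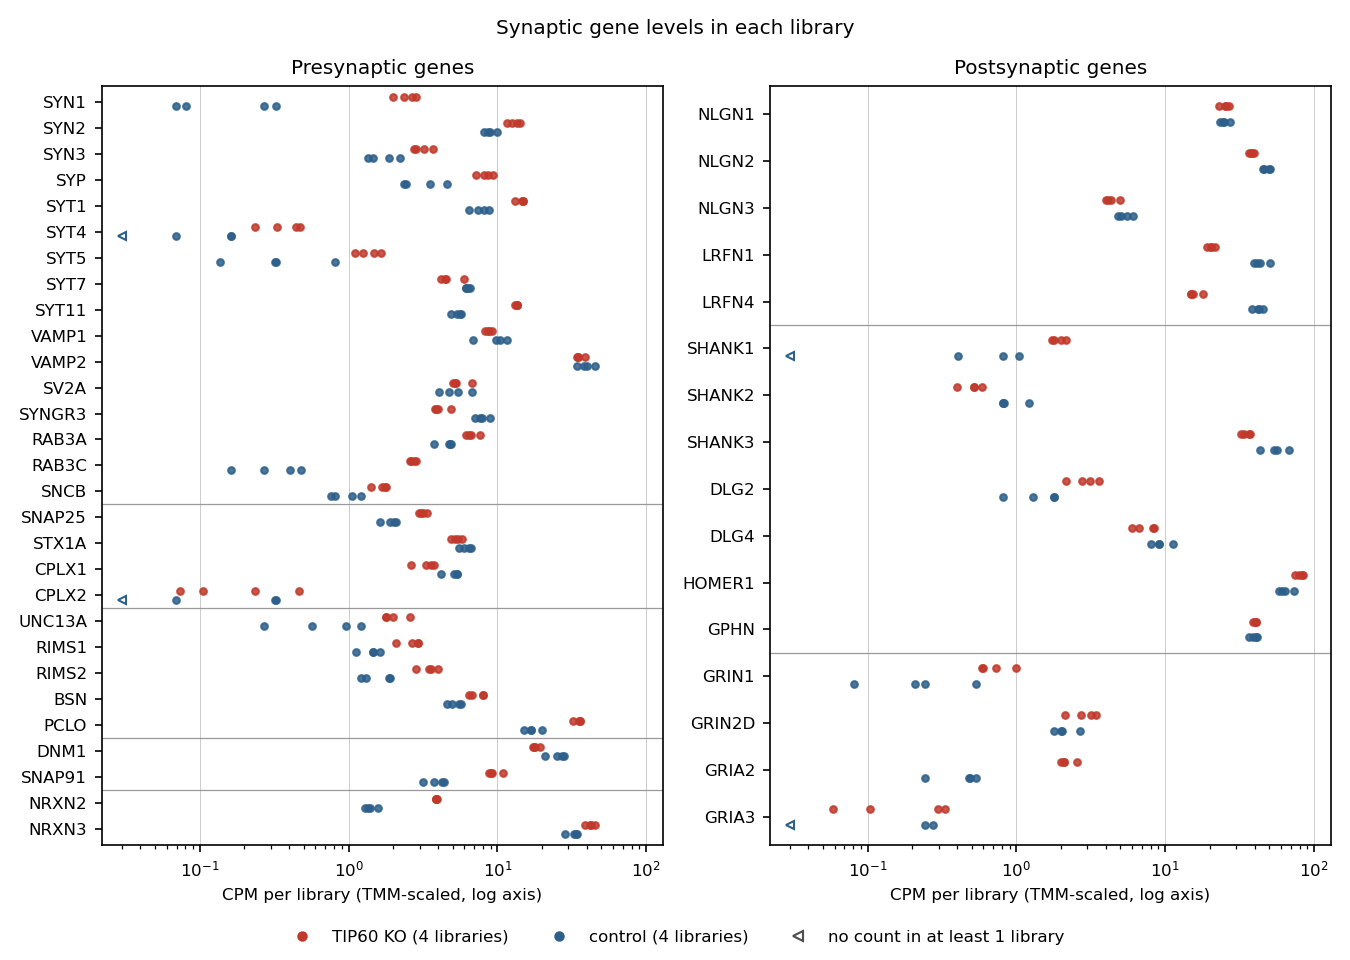
CPM of each synaptic gene in each library on a log axis, with KO points drawn above control points in every row and grey lines between functional classes. SYN1, RAB3C and GRIA2 show the widest gaps to the right for KO, LRFN4 and LRFN1 the widest to the left, and open triangles mark SYT4, CPLX2, SHANK1 and GRIA3, which had no count in at least 1 control library.

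Among the vesicle genes, 10 of 15 tested were higher in KO, 2 lower and 3 not called, and SYT4 was too rare to test. Of these 10, SYN1, SYT5 and RAB3C passed the filter through KO alone, which fixed their direction. SYN1, a synapsin that tethers vesicles to the cytoskeleton (gene ID 6853, chromosome X, 47571901 to 47619857, GRCh38), had few counts in control cells. It had 34, 32, 51 and 43 counts in KO libraries, against 1, 1, 1 and 4 counts in control libraries, which is 1.99, 2.38, 2.67 and 2.85 CPM in KO libraries, against 0.0808, 0.269, 0.06902 and 0.326 CPM in control libraries. Every KO library thus lay well above the highest control library. The log2 fold change was 3.88 ± 0.38, adjusted p = 2.17e-08, the largest of the 42 genes, and the ratio of CPM was 15.1 (7.17 to 38.2) (exact 95% counting interval). Of its 7 control counts, 4 lay in control sgRNA2 replicate 2, without which the log2 fold change was 4.50. The other synapsins were more abundant in control cells, and both were higher in KO. SYN2 averaged 12.98 ± 1.11 CPM in KO and 8.92 ± 0.761 CPM in control libraries (SD, n = 4; log2 fold change 0.53 ± 0.10), and SYN3 3.12 ± 0.436 CPM in KO and 1.72 ± 0.396 CPM in control libraries (0.82 ± 0.20). SYN3 was not called after thinning to the smallest library (adjusted p = 0.0628, with 3.17e-04 to 0.0628 over 17 alternatives).

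A stretch upstream of SYN1 and of GRIA2, the gene of an AMPA-type glutamate receptor subunit, carries the core of the RE1 element, the sequence bound by the repressor REST at many neuronal genes. They were the 2 genes of the 45 with a match in a window held here, which is why these promoters are shown. RefSeq windows of 250 bases before to 50 after an annotated start (GRCh38.p14) were held for 34 of the 45 genes, 58 windows in all. They were searched on both strands for CAGCACC, any 2 bases, then GGACAG, with up to 2 mismatches in the 13 fixed letters. This core was found in 2 of 58 windows (3.45%), those of SYN1 and GRIA2, and in 2.03% of all 35116 windows. Both matches were exact, as were 0.0513% of all windows. In SYN1 the core lies at -231 to -217 from the start on the gene's strand (chrX:47619808-47620107, minus strand), and in GRIA2 at -227 to -213 on the opposite strand, in the window of the last of 3 annotated starts (chr4:157220369-157220668, plus strand). Capitals mark the core in each window, written 5′ to 3′ along the gene.
SYN1: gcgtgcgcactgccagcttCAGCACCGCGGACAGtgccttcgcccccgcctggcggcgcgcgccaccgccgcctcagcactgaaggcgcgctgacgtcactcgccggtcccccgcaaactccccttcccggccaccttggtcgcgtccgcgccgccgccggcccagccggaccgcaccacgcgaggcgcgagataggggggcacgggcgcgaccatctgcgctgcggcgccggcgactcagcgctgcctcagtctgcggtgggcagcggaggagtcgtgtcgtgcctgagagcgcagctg
GRIA2: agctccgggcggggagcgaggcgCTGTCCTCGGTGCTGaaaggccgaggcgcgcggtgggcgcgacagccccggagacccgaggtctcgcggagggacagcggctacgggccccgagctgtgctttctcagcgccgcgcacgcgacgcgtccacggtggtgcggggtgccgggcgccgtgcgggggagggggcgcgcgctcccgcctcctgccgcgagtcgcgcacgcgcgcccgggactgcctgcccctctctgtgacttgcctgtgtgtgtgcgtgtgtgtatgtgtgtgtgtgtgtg
A match is a description of the letters and not a sign of binding in these cells. REST itself was at 83.5, 79.9, 74.5 and 81.2 CPM in KO libraries, against 94.7, 85.4, 86.8 and 78.3 CPM in control libraries, a log2 fold change of -0.12 ± 0.05, adjusted p = 0.0464, and the arms overlapped. The SYN1 window also holds TGACGTCA, the cyclic AMP response element, at -159 to -152, a motif found in 2 of the 58 windows and in 1.85% of all windows. A loose form of the AP-1 motif, TGANTCA with any base in the middle, stood in 6 of the 58 windows (10.3%) and in 7.71% of all windows. Windows were not held for SYN3, SYT7, SYNGR3, SNAP25, CPLX1, RIMS2, NRXN2, SHANK1, SHANK2, GRIN1 and GRIA3.

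The small GTPase genes RAB3A and RAB3C, whose products sit on vesicles and regulate docking, both rose. RAB3C had 2.63, 2.82, 2.77 and 2.58 CPM in KO libraries, against 0.162, 0.269, 0.483 and 0.407 CPM in control libraries. Every KO library lay far above every control library, and the log2 fold change was 2.93 ± 0.31, adjusted p = 5.26e-08 (3.59 after thinning). RAB3C passed the filter through KO alone, which fixed its direction. RAB3A averaged 6.74 ± 0.642 CPM in KO and 4.54 ± 0.541 CPM in control libraries (SD, n = 4; 0.59 ± 0.14). SYP, for the abundant vesicle membrane protein synaptophysin, had 7.19, 8.096, 9.31 and 8.67 CPM in KO libraries, against 2.34, 4.58, 3.52 and 2.44 CPM in control libraries, with all KO libraries above all controls (1.50 ± 0.16, adjusted p = 7.96e-08). SNCB, for beta-synuclein, was rarer, at 1.66 against 0.9597 CPM in KO and control libraries on average (0.76 ± 0.26, adjusted p = 0.0154). Its call was lost with DESeq2 (adjusted p = 0.0671) and without control sgRNA2 replicate 1 (0.0983), with 0.0111 to 0.0983 over its alternatives.

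Synaptotagmins divided. SYT11, which lacks the usual calcium binding of the family, had 13.1, 13.6, 13.5 and 13.5 CPM in KO libraries, against 4.85, 5.66, 5.59 and 5.37 CPM in control libraries, 2 tight groups with a wide gap (1.34 ± 0.10, adjusted p = 8.47e-10). SYT1, the calcium sensor of fast release, had 14.96, 14.9, 14.6 and 13.04 CPM in KO libraries, against 7.43, 6.47, 8.83 and 8.14 CPM in control libraries (0.85 ± 0.10, adjusted p = 4.79e-07), again without overlap. SYT5 rose by 2.12 ± 0.39 on the log2 scale from few control counts, with 19, 20, 24 and 25 counts in KO libraries, against 4, 3, 2 and 4 counts in control libraries. The filter, which SYT5 passed through KO alone, fixed that direction. SYT7, a sensor of slower release, was in contrast lower, at 5.96, 4.16, 4.497 and 4.44 CPM in KO libraries, against 6.302, 6.197, 6.14 and 6.59 CPM in control libraries (-0.41 ± 0.14, adjusted p = 0.0155). Its call was lost without control sgRNA2 replicate 2 (adjusted p = 0.05002, with 0.00328 to 0.05002 over 17 alternatives), and thinning gave -0.66. SYT4 had 4, 6, 9 and 5 counts in KO libraries, against 2, 0, 1 and 2 counts in control libraries, a CPM ratio of 3.17 (1.19 to 10.7) by counting error alone.

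The vesicle SNARE genes VAMP1 and VAMP2, whose products pair with the SNAREs of the target membrane, were not called. VAMP2 had 34.6, 38.9, 34.1 and 34.9 CPM in KO libraries, against 34.4, 45.5, 38.3 and 40.05 CPM in control libraries (-0.12 ± 0.07, adjusted p = 0.136), and VAMP1 8.704, 8.32, 8.84 and 9.204 CPM in KO libraries, against 6.87, 11.6, 10.4 and 9.77 CPM in control libraries (-0.07 ± 0.12, adjusted p = 0.6195), and in both the arms overlapped. Without control sgRNA1 replicate 1, VAMP2 passed the test (-0.22, adjusted p = 0.00744, with 0.00744 to 0.298 over 17 alternatives). Another gene shares 13.2% of VAMP2's exonic bases on the same strand. SV2A, for a vesicle glycoprotein, was not called either (0.13 ± 0.14, adjusted p = 0.426; -0.12 after thinning). SYNGR3, for synaptogyrin-3, a vesicle membrane protein, had 4.85, 3.79, 3.97 and 3.84 CPM in KO libraries, against 7.92, 8.89, 7.04 and 7.65 CPM in control libraries and so was lower in every KO library (-0.91 ± 0.13, adjusted p = 4.50e-06).

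At the target membrane the SNARE genes and their regulators did not move together. SNAP25 had 3.15, 3.05, 3.35 and 2.98 CPM in KO libraries, against 2.02, 1.89, 2.07 and 1.63 CPM in control libraries, low but separate groups (0.71 ± 0.19, adjusted p = 0.00259). STX1A, the syntaxin that pairs with it, was at 5.35 against 6.14 CPM in KO and control libraries on average and was not called (-0.17 ± 0.13, adjusted p = 0.2500); BUD23 on the other strand overlaps 17.9% of its exonic bases. CPLX1, a complexin that holds the SNARE complex ready for calcium, had 2.63, 3.57, 3.29 and 3.77 CPM in KO libraries, against 5.33, 5.12, 5.31 and 4.15 CPM in control libraries and was lower in each KO library (-0.59 ± 0.16, adjusted p = 0.00377). After thinning its log2 fold change was -0.38 (adjusted p = 0.2401, with 3.40e-04 to 0.2401 over 17 alternatives). CPLX2 was too rare to test, with 4, 1, 2 and 7 counts in KO libraries, against 4, 0, 1 and 4 counts in control libraries.

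All 5 active zone genes among the 45 rose, with every KO library above every control library in each. Of 10 further active zone genes tested outside the 45, 4 were higher, 2 lower and 4 not called. The 2 lower ones were RIMS3 (-0.40 ± 0.11, adjusted p = 0.00318) and PPFIA3, for a liprin (-0.51 ± 0.07, adjusted p = 1.48e-06). PCLO, for the giant scaffold piccolo (gene ID 27445, chromosome 7, 82754012 to 83162884, GRCh38), was the most abundant, with 35.8, 32.2, 35.98 and 35.6 CPM in KO libraries, against 19.9, 16.7, 15.1 and 16.9 CPM in control libraries (1.02 ± 0.08, adjusted p = 7.41e-10). Its partner scaffold BSN, for bassoon, was at 7.27 ± 0.792 CPM in KO and 5.18 ± 0.502 CPM in control libraries (SD, n = 4; 0.46 ± 0.13, adjusted p = 0.004902). BSN was not called after thinning (0.30, adjusted p = 0.295, with 0.00239 to 0.295 over 17 alternatives). RIMS1 and RIMS2, whose products link vesicles and calcium channels, were both higher, RIMS1 by 0.92 ± 0.23 and RIMS2 by 1.17 ± 0.20 on the log2 scale. UNC13A, for a factor that primes vesicles for fusion, had 1.99, 1.78, 1.78 and 2.58 CPM in KO libraries, against 0.566, 0.269, 0.966 and 1.22 CPM in control libraries (1.27 ± 0.28, adjusted p = 5.46e-04). The arms did not overlap, control libraries held 1 to 15 counts each, and thinning gave 3.08.

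Of the membrane retrieval genes, SNAP91, for a clathrin adaptor of synaptic vesicles, rose, and DNM1, for the neuronal dynamin that cuts vesicles free, fell. SNAP91 had 9.23, 8.84, 9.098 and 10.9 CPM in KO libraries, against 3.15, 3.77, 4.35 and 4.23 CPM in control libraries (1.30 ± 0.13, adjusted p = 3.08e-08). DNM1 had 17.9, 17.5, 19.5 and 17.4 CPM in KO libraries, against 20.8, 25.3, 27.9 and 27.3 CPM in control libraries (-0.47 ± 0.08, adjusted p = 3.26e-05). In neither gene did the arms overlap. Both neurexin genes tested rose: NRXN2 had 3.91, 3.86, 3.87 and 3.84 CPM in KO libraries, against 1.29, 1.35, 1.59 and 1.38 CPM in control libraries (1.44 ± 0.19, adjusted p = 1.44e-06), with KO libraries close together and above all controls. NRXN3, which was more abundant, averaged 42.2 ± 2.75 CPM in KO and 32.2 ± 2.57 CPM in control libraries (SD, n = 4; 0.37 ± 0.06, adjusted p = 3.21e-05).

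**Figure D3:**
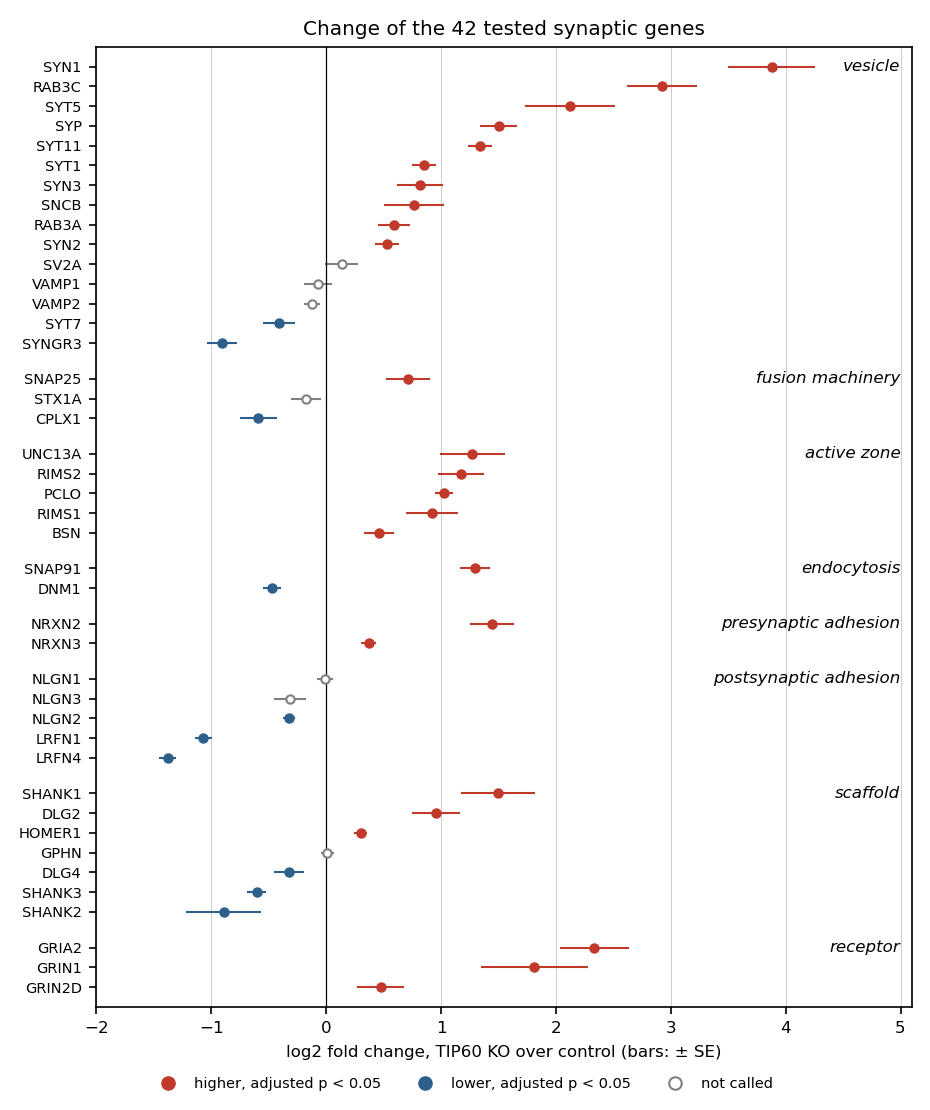
Log2 fold change of KO over control for the 42 tested synaptic genes, grouped by role, with SE bars. All 5 active zone genes shown lie to the right of 0, none of the 5 postsynaptic adhesion genes is called higher, and SYN1 (3.88) and LRFN4 (-1.38) are the extremes.

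On the postsynaptic membrane, no adhesion gene rose: 3 of 5 were lower and 2 were not called. LRFN4 and LRFN1 encode leucine-rich repeat adhesion proteins that bind postsynaptic scaffolds. LRFN4 (gene ID 78999, chromosome 11, 66857064 to 66860475, GRCh38) had 14.96, 14.9, 17.9 and 15.4 CPM in KO libraries, against 38.4, 45.5, 42.3 and 41.7 CPM in control libraries (-1.38 ± 0.07, adjusted p = 1.85e-12). LRFN1 had 20.3, 19.1, 21.5 and 20.3 CPM in KO libraries, against 41.3, 50.6, 43.3 and 39.6 CPM in control libraries (-1.07 ± 0.07, adjusted p = 7.58e-11). In both genes the arms were far apart. PC, whose exons cover 22.0% of LRFN4's exonic bases on the other strand, was itself higher in KO (0.25 ± 0.06, adjusted p = 8.89e-04), and a non-coding gene covers 20.3% of LRFN1 on the same strand. The strand setting of the counting is not given in the sources used here.

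Of the neuroligins, which bind neurexins, 1 was lower and 2 were not called. NLGN2, the neuroligin of inhibitory synapses, had 36.6, 38.2, 39.4 and 37.8 CPM in KO libraries, against 45.4, 49.6, 50.7 and 45.8 CPM in control libraries (-0.32 ± 0.06, adjusted p = 4.10e-05), a small difference without overlap. NLGN3 missed the threshold (-0.32 ± 0.14, adjusted p = 0.05102) and passed in 5 of 17 alternatives, among them those without KO sgRNA2 replicate 2 (0.0421) and without control sgRNA1 replicate 2 (0.04698), within 0.0421 to 0.961 overall. NLGN1 averaged 25.1 ± 1.66 CPM in KO and 24.99 ± 1.64 CPM in control libraries (SD, n = 4; -0.01 ± 0.07, adjusted p = 0.911).

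Scaffold genes went both ways, 3 higher, 3 lower and 1 not called. The 3 SHANK genes, whose products form the deep layer of the excitatory postsynaptic density, differed in level and direction. SHANK3 had 32.2, 33.9, 37.02 and 36.4 CPM in KO libraries, against 43.5, 67.6, 55.9 and 53.5 CPM in control libraries, with every KO library below the controls (-0.60 ± 0.08, adjusted p = 1.81e-06). SHANK1 had 34, 24, 41 and 26 counts in KO libraries, against 5, 0, 15 and 10 counts in control libraries, a rise of 1.49 ± 0.32, adjusted p = 3.82e-04. Its controls held none in the smallest library, and thinning gave 2.21. SHANK2 passed the filter through control alone, which fixed its direction. It was rare and lower, with 10, 7, 10 and 6 counts in KO libraries, against 15, 3, 12 and 10 counts in control libraries, which is 0.584, 0.5199, 0.523 and 0.397 CPM in KO libraries, against 1.21, 0.808, 0.828 and 0.814 CPM in control libraries (-0.89 ± 0.33, adjusted p = 0.0229). That call was lost with DESeq2 (adjusted p = 0.112) and without any of 5 libraries, namely both KO sgRNA1 libraries, KO sgRNA2 replicate 2, control sgRNA1 replicate 1 and control sgRNA2 replicate 1, within 0.0183 to 0.142 over its alternatives.

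HOMER1, for a scaffold that ties receptors to intracellular calcium stores, had 84.1, 82.5, 79.7 and 74.6 CPM in KO libraries, against 73.1, 58.2, 63.98 and 60.6 CPM in control libraries (0.30 ± 0.06, adjusted p = 7.65e-05). The rise was small but without overlap, from the highest level of any of the 45 genes in CPM. DLG2 rose (2.91 ± 0.609 CPM in KO and 1.42 ± 0.472 CPM in control libraries, SD, n = 4; 0.96 ± 0.21, adjusted p = 4.55e-04). DLG4, for the major scaffold of excitatory synapses, was at 7.33 ± 1.16 CPM in KO and 9.38 ± 1.396 CPM in control libraries (-0.32 ± 0.13, adjusted p = 0.0385), and its arms overlapped. The call for DLG4 was lost with library totals alone, with DESeq2, after thinning and without any of KO sgRNA1 replicate 1, KO sgRNA2 replicate 1, control sgRNA1 replicates 1 and 2 and control sgRNA2 replicate 1 (adjusted p 0.00907 to 0.333 over 17 alternatives). GPHN, for gephyrin, the scaffold of inhibitory synapses, averaged 40.1 ± 0.745 CPM in KO and 39.3 ± 2.204 CPM in control libraries (SD, n = 4; 0.01 ± 0.06, adjusted p = 0.949).

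Of the 4 glutamate receptor genes among the 45, 3 could be tested and were higher. Of these 3, GRIN1 and GRIA2 passed the filter through KO alone, which fixed their direction. Of 8 further glutamate receptor genes tested outside the 45, 4 were higher, 0 lower and 4 not called, among these GRIK4 (-0.45 ± 0.21, adjusted p = 0.0673) and GRM8 (-0.30 ± 0.21, adjusted p = 0.207). Of the further genes called higher, GRIN2C, GRM2 and GRM4 stayed below the filter cutoff of 0.716 CPM in every control library. Among all genes tested, 31.8% were higher and 31.2% lower. GRIA2, whose subunit makes AMPA receptors poorly permeable to calcium, had 44, 28, 40 and 30 counts in KO libraries, against 6, 2, 7 and 3 counts in control libraries, which is 2.57, 2.08, 2.09 and 1.99 CPM in KO libraries, against 0.485, 0.539, 0.483 and 0.244 CPM in control libraries. The groups were far apart (2.33 ± 0.30, adjusted p = 1.03e-06; CPM ratio 5.22 (3.18 to 9.06)), and this is the second of the genes whose window holds the RE1 core. GRIN1, the subunit shared by all NMDA receptors, had 10, 8, 19 and 11 counts in KO libraries, against 1, 2, 3 and 3 counts in control libraries (1.81 ± 0.47, adjusted p = 0.00199). GRIN2D had 3.45, 3.19, 2.72 and 2.12 CPM in KO libraries, against 1.78, 2.69, 2.001 and 2.04 CPM in control libraries and overlapped between arms (0.48 ± 0.20, adjusted p = 0.0469). Its call was lost in 11 of 17 alternatives (adjusted p 0.0247 to 0.305), the replicate block among them, and the value was 0.28 without control sgRNA1 replicate 1. The GRIN2D call was also lost without both KO sgRNA1 libraries in turn, KO sgRNA2 replicate 1 and each sgRNA2 control. GRIA3 was too rare to test, with 1, 4, 2 and 5 counts in KO libraries, against 3, 0, 4 and 0 counts in control libraries.

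Levels of different genes were compared as CPM per kilobase of gene length. HOMER1 led in KO (18.6 against 14.8 in control libraries) and VAMP2 in control cells (13.8 against 15.3 in control libraries). SYN1 stood at 0.769 in KO against 0.0580 in control libraries, place 26 of 45 in KO and place 40 in control cells. LRFN4, at 4.72 against 12.5, held place 7 in KO and place 4 in control cells. RAB3C and GRIA2 held places 36 and 33 in KO and places 42 and 38 in control cells.

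Rare genes were more often higher in KO over the whole series, so counts were also read by abundance. At a mean of 1 to 4 CPM, 13 of 13 synaptic genes tested were higher (median 1.17 on the log2 scale), beside 37.7% of all 1934 genes of that class and a median of 0.29. Of these 13, SYN1, RAB3C and GRIA2 passed the filter through KO alone, which fixed their direction. At 4 to 16 CPM, 7 of 15 were higher and 4 lower, beside 34.7% and 25.7%. At 16 to 64 CPM, 2 of 10 were higher and 5 lower, beside 30.3% and 37.0%. Below 1 CPM, GRIN1 and SYT5 were higher and SHANK2 lower, beside 40.7% and 3.57% of all genes; each of the 3 passed the filter through 1 arm alone, which fixed its direction. HOMER1, which was higher, was the 1 gene above 64 CPM, where 26.9% of all genes were higher and 43.9% lower.

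**Figure D4:**
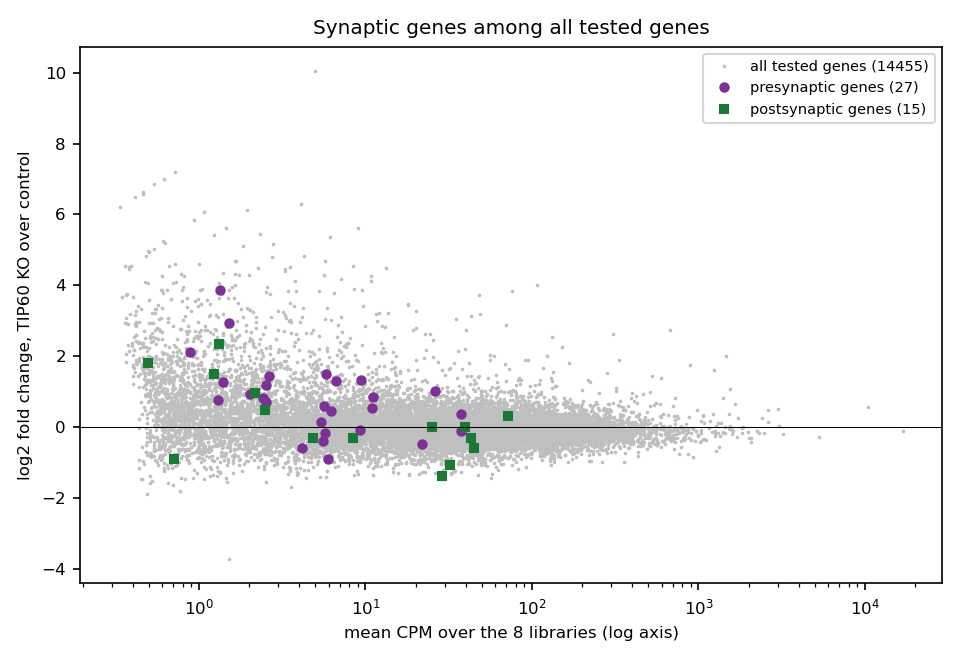
Log2 fold change of KO over control against mean CPM (log axis) for all 14455 tested genes (grey), with the presynaptic genes as circles and the postsynaptic genes as squares. Synaptic genes at 1 to 4 CPM all lie above 0, where the cloud of all genes is also wider upward, and LRFN1, LRFN4 and SHANK3 lie below 0. Among those at 1 to 4 CPM, SYN1, RAB3C and GRIA2 passed the filter through KO alone.

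Most changes had the same direction with both guide numbers. KO and control libraries were matched here by the number in the label alone. The sources used here do not say that guides of equal number in the 2 arms correspond. Taken within each guide number, 40 of the 42 genes had the same sign, the exceptions being VAMP1 and GPHN, both close to 0. For SYN1 the log2 fold change was 4.02 ± 0.66 with sgRNA1 and 3.81 ± 0.47 with sgRNA2, and for LRFN4 -1.45 ± 0.11 and -1.33 ± 0.10. SHANK1 showed 2.58 ± 0.55 and 1.06 ± 0.36, RAB3C 3.80 ± 0.52 and 2.56 ± 0.36, and UNC13A 1.92 ± 0.49 and 0.98 ± 0.33. Taken as sgRNA2 minus sgRNA1, KO libraries differed by 0.04 for SHANK1, -0.02 for RAB3C and 0.18 for UNC13A. Control libraries differed by 1.57, 1.22 and 1.12, on few counts. Within either arm, 0 synaptic genes were called between the guide numbers. In a test of the difference between guides (edgeR, model of the 4 group means), 0 synaptic genes and 0% of all genes were called. At an unadjusted p under 0.05 the counts were 2 synaptic genes, PCLO and SHANK1, and 638 of all 14455 genes; no other tool was run for this contrast.

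**Figure D5:**
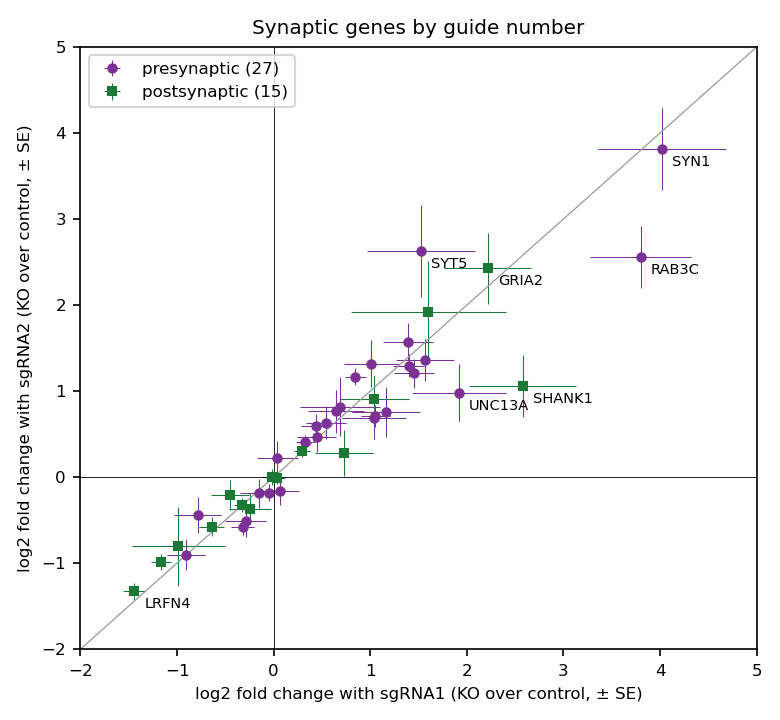
Log2 fold change of KO over control with sgRNA1 (x axis) against sgRNA2 (y axis) for the 42 tested synaptic genes, with SE bars and the line of equality. Points follow the line from LRFN4 at the lower left to SYN1 at the upper right, with SHANK1 (2.58 and 1.06) and RAB3C (3.80 and 2.56) below it.

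A further list of 126 synaptic genes outside the 45 also changed in both directions. Of 79 that passed the filter, 32 were higher (40.5%) and 20 lower (25.3%), beside 31.8% and 31.2% of all genes; the median was 0.10 on the log2 scale. On the presynaptic side 21 of 45 were higher (46.7%) and 7 lower (15.6%). On the postsynaptic side 11 of 34 were higher (32.4%) and 13 lower (38.2%), shares near those of all genes. The sides are those given in the list, which placed GRM2 and GRM4, both higher, on the postsynaptic side. The 3 largest rises were those of SV2C, a vesicle glycoprotein gene with 74 KO and 3 control counts (CPM ratio 16.3 (5.37 to 80.9), exact counting interval), GRM2, for a metabotropic glutamate receptor (3.27 ± 0.44), and LRRTM3, for a postsynaptic adhesion protein, with 47 KO and 3 control counts (CPM ratio 10.4 (3.34 to 52.05)). SV2C, GRM2 and LRRTM3 stayed below the filter cutoff of 0.716 CPM in every control library. They thus passed it through KO alone, which fixed their direction. How many of the 79 passed through 1 arm alone was not counted. The 3 largest falls were in SLITRK5 (-0.97 ± 0.06), SYNGR1 (-0.94 ± 0.08) and LRFN5 (-0.91 ± 0.20). SYNGR1 is a paralog of SYNGR3, and LRFN5 of LRFN1 and LRFN4, which were lower as well.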

How the data were processed

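Raw counts per gene, deposited by the authors as 1 table per library with no normalisation, were used with the gene length in bases that each table also gives per the file headers. Per the labels' protocols, RNA was made into stranded TruSeq mRNA libraries and sequenced as paired ends. The submitters' processing notes name featureCounts and hg38. For the aligner, annotation and strand setting: not given in the sources used here. Entries without a gene ID (459, holding 0.0284 to 0.0425% of counts) were left out. Symbols and coordinates came from RefSeq on GRCh38.p14 (27744 of 27936 IDs matched), and promoter windows from the same source, whereas exon overlaps were measured on GENCODE v29.

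Low genes were removed with filterByExpr (4 groups, at least 10 counts, total of at least 15). KO was compared with control in edgeR 4.0.16 (quasi-likelihood F test, TMM) adding sgRNA number as a covariate (5 residual df). The guide difference used the 4 group means. Benjamini-Hochberg adjustment ran over 14455 genes. Standard errors are the log2 fold change divided by the square root of F. Ratios of CPM carry exact 95% intervals for counting error alone; the labels mention no molecular identifiers, so reads need not be independent molecules. The steps were tested on simulated data.

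The 45 genes, the further synaptic list and the markers were chosen with earlier results of these data known; 1 marker is not reported here. Named were all 45 genes, KAT5, REST, genes overlapping them, the 3 largest rises and falls of the further list and, after their values were seen, 4 more of its active zone and receptor genes; the RE1, cyclic AMP and AP-1 motifs were chosen after seeing values. Alternatives were other scalings and filters, DESeq2 1.42.0, limma-voom (limma 3.58.1), no guide term, a replicate block, thinning to the smallest library (1 draw) and leaving out each library.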

Additional observations from a re-analysis of the deposited data

Results flagged for a closer look

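In 7 of the 84 sets of 4 libraries (42 genes in 2 arms), 1 library stood apart from the other 3 by more than Dixon's 95% critical value; chance gives about 1 in 20. SYT1 was low in KO sgRNA2 replicate 2, at 13.04 CPM beside 14.6 to 14.96 CPM in the other KO libraries. VAMP2 was high in KO sgRNA1 replicate 2, at 38.9 CPM beside 34.1 to 34.9 CPM in the other KO libraries. SV2A was high in KO sgRNA1 replicate 2, at 6.76 CPM beside 5.03 to 5.28 CPM in the other KO libraries. RAB3A was low in control sgRNA2 replicate 1, at 3.73 CPM beside 4.77 to 4.85 CPM in the other control libraries. PCLO was low in KO sgRNA1 replicate 2, at 32.2 CPM beside 35.6 to 35.98 CPM in the other KO libraries. LRFN4 was high in KO sgRNA2 replicate 1, at 17.9 CPM beside 14.9 to 15.4 CPM in the other KO libraries. SHANK2 was high in control sgRNA1 replicate 1, at 1.21 CPM beside 0.808 to 0.828 CPM in the other control libraries. The log2 fold change of SV2A, which was not called, was negative after thinning and positive in the other settings.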

How the results depend on the processing

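The counts of synaptic genes called higher (25) and lower (10) were 18 to 25 and 7 to 11 over 17 alternatives, and no value of a called gene changed sign. Of 35 called genes, 27 kept their call under every alternative that could fit them. The postsynaptic genes called higher were 6, and 3 after thinning to the smallest library; every other count for a side was within 1.5 times its value. With the replicate block the counts were 24 higher and 10 lower, the lost call being that of GRIN2D. The numbers mark no stated shared batch, and libraries of equal number did not deviate together (correlation 0.0151 for sgRNA1 and 0.0276 for sgRNA2). Leaving out each library in turn gave 23 to 25 higher and 8 to 10 lower, and without the smallest library the counts were 25 and 10. The 3 rarest genes were not recomputed. Among all genes, 4602 higher and 4507 lower calls became 3264 and 3317 after thinning. Library totals alone moved the median log2 fold change of all genes to 0.04 from 0.01. Depth limits SYT4, CPLX2 and GRIA3, which the filter removed, and the fold changes of SYN1, SYT5, RAB3C, SHANK1, GRIN1 and GRIA2, whose controls held few counts. The cause of the changes under thinning was not tested.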

Other observations

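An exact match to the RE1 core was present in 18 of 35116 RefSeq promoter windows, belonging to 16 genes, of which 4 passed the filter here. Beside SYN1 (3.88) and GRIA2 (2.33), these were OGDHL, for a mitochondrial dehydrogenase-like enzyme (log2 fold change 0.92 ± 0.20, adjusted p = 0.000371), and UCN, for the neuropeptide urocortin (0.50 ± 0.22, adjusted p = 0.0571, edgeR). OGDHL averaged 3.30 CPM in KO and 1.63 CPM in control libraries, and UCN 2.67 and 1.94 CPM. SYN1 and GRIA2 passed the filter through KO alone, which fixed their direction. The genes were picked by a motif chosen after seeing the data, and no test of the motif was made.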
